A study of Rattus norvegicus with 5 samples.

Results

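*Irf1*, *Rsad2*, *Gbp2*, *Mx1*, *Mx2* and *Cxcl10* are 6 transcripts that cells make in response to interferon, and they were followed on 5 rat U34A arrays of fetal hypothalamic cultures. Every probe set whose only annotated gene is one of the 6 was taken and read on its own, which gave 8 probe sets of the 7006 with 1 gene symbol, and 6 genes of 4736. *Irf1* and *Rsad2* have 2 probe sets each, and each pair was designed on a single sequence entry. The rule uses no measured value, but the 6 genes were picked with earlier results of these data known.

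All cells came from primary cultures of the hypothalamus of Wistar rat embryos at day 17 and were harvested after 3 days in culture. GFP+ cells (2 arrays) had been transfected, by polyethylenimine, with a plasmid that drives GFP from the minimal *Trh* promoter, and were collected by fluorescence-activated cell sorting. They are thus strongly enriched in cells in which that promoter fragment was active, although the paper reports that a small part of the sorted cells was not GFP+. GFP+/- cells (2 arrays) were transfected with the same plasmid and went through the sorter without selection, so they hold GFP+ and GFP- cells. NT cells (1 array) were not transfected, and the sources used here do not say whether they went through the sorter. The GFP+ RNA was a pool of 6 experiments and the GFP+/- and NT RNAs were pools of 3. The paper describes these 3 as separate from the experiments of the GFP+ pool. The labels name the arrays of a population biological replicates, but the methods describe aliquots of a single RNA pool, so every p-value below measures the spread between arrays only. The *Trh* transcript itself was dim, its brighter probe set having signals of 115, 141, 109, 106 and 96.6 in the order GFP+ array 1, GFP+ array 2, GFP+/- array 1, GFP+/- array 2 and NT.

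Interferons are secreted proteins that cells release when they sense foreign nucleic acid. They act through surface receptors and Janus kinases, which switch on STAT and IRF transcription factors. Type I interferon leads to binding at interferon-stimulated response elements and interferon-gamma to binding at gamma-activated sequences, and the genes beside these elements encode antiviral proteins, antigen-processing proteins and chemokines. In the brain, neurons and glia both carry interferon receptors.

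The 6 genes lie on 5 rat chromosomes. In the RefSeq annotation of GRCr8, *Gbp2* is on chromosome 2 from 234005727 to 234021812, *Rsad2* on chromosome 6 from 48774985 to 48788245, and *Irf1* on chromosome 10 from 38417935 to 38424946. *Mx1* is on chromosome 11 from 50269056 to 50294699, *Mx2* on the same chromosome from 50375101 to 50399373, and *Cxcl10* on chromosome 14 from 15989066 to 15991263. All 6 are annotated as protein coding. *Mx1* and *Mx2* are related neighbours, and how far their probe sets share signal was not tested.

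Promoter sequences were found for 5 of the 6 genes, all but *Mx2*. The 250 bases before the start given in the promoter table were searched on both strands for the core of the interferon-stimulated response element (GAAANNGAA, read as TTCNNTTTC on the other strand), the gamma-activated sequence (TTCNNNGAA, its own reverse complement), a short form of the kappa B site (GGGNNTTCC) and a TATA box (TATAAA). The response element core was found in 3 of the 5 (*Cxcl10*, *Gbp2* and *Rsad2*), against 8.12% of 33469 rat promoters. The gamma-activated sequence was found in 1 (*Irf1*), against 7.67%. The letters TATAAA were found in 3, against 12.9%. Counted from the start used by the table, their first base lay at -162 in *Cxcl10*, at -77 (other strand) and -75 in *Mx1*, and at -44 (other strand) in *Rsad2*. Whether any of these acts as a TATA box was not tested. The short kappa B form was found in 0 of 5, against 5.09%, but it matches only some forms of the usual site of 10 bases. That site, searched after the sequences had been seen, was found in 2 (*Cxcl10* and *Irf1*), against 6.33%. The 4 promoters with an interferon motif are shown because they carry these letters next to the transcripts whose signals follow. They are RefSeq sequence of GRCr8, 5′ to 3′ on the gene's strand and up to the base before the annotated gene, with the matching letters in capitals.
Cxcl10, chr14:15988816-15989065, plus strand: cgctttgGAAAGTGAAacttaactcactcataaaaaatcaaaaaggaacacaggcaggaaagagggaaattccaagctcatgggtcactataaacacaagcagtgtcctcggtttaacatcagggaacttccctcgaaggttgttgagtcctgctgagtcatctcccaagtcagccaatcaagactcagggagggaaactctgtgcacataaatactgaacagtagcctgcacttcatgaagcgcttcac
Gbp2, chr2:234005477-234005726, plus strand: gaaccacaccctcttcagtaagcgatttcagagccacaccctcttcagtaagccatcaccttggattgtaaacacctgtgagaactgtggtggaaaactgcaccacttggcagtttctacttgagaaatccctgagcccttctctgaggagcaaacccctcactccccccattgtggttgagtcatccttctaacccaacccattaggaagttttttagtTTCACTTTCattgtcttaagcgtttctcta
Rsad2, chr6:48788246-48788370, minus strand: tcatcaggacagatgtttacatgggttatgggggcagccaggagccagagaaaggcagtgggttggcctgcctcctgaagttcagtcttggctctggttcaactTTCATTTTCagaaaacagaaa
Irf1, chr10:38417685-38417934, plus strand: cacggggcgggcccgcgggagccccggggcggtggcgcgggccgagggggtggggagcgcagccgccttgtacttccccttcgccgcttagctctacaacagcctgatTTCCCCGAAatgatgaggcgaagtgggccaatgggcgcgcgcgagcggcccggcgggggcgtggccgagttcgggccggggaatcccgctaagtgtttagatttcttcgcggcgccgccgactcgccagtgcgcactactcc
For *Rsad2* the stretch is 125 bases, since the other 125 bases before the start used by the table lie inside the annotated gene. Counted from the start used by the table, the first matching base lay at -243 in *Cxcl10*, -30 in *Gbp2*, -146 in *Rsad2* and -142 in *Irf1*. A match of letters is a description of the reference sequence and was not tested as a binding site.

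On the arrays, all 8 probe sets had their highest signal on GFP+ array 1, and 6 of 8 had their lowest on the NT array. Over all 8740 probe sets analysed, 23.2% were highest on GFP+ array 1 and 27.2% were lowest on the NT array. Signals are the authors' MAS 5.0 values, which are linear, have no unit and were scaled to a common level on every array. The level of one probe set is not set against that of another here, because probes differ in how well they bind. Of the 8 probe sets, 7 were among the brightest 41% of the array by mean signal over the 5 arrays, which is above 175. The exception was the dimmer probe set of *Irf1*. This mean includes the GFP+ arrays, so membership is not independent of the comparisons below.

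**Figure D1:**
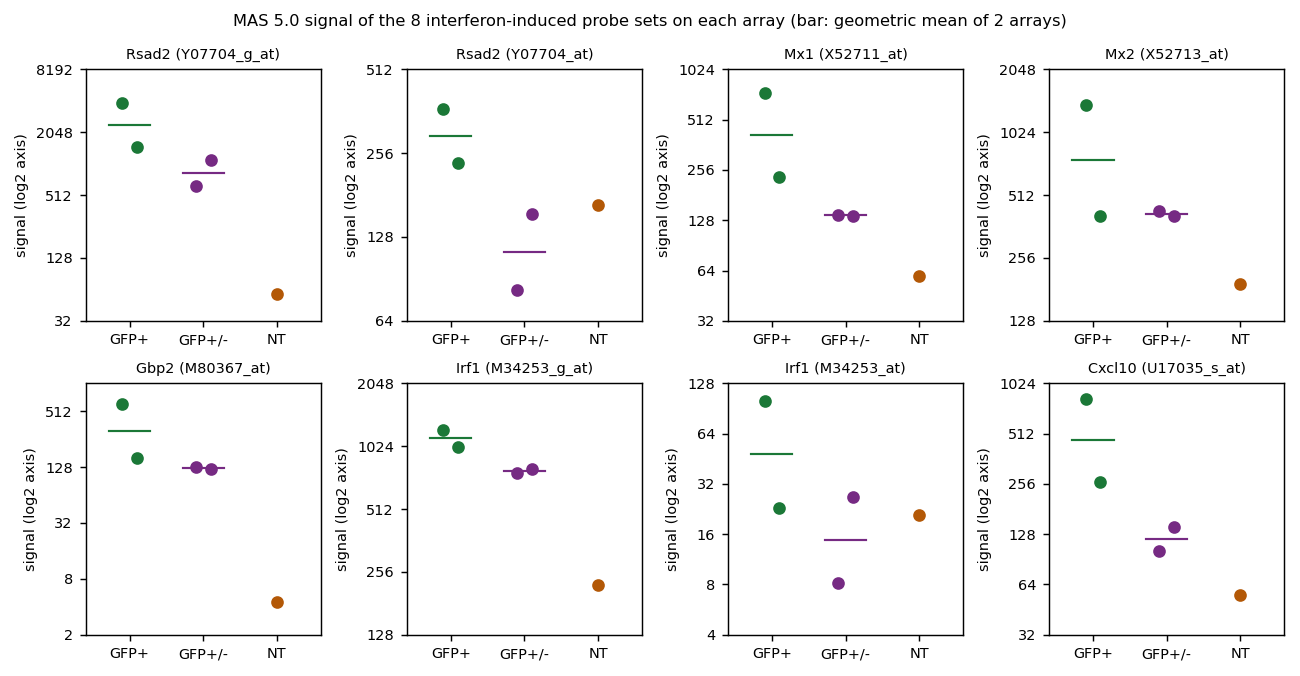
MAS 5.0 signal (log2 axis, scale differing between panels) of each interferon-induced probe set on the GFP+ (green, 2 arrays), GFP+/- (purple, 2 arrays) and NT (orange, 1 array) arrays; points are arrays, array 1 on the left, and bars are geometric means. In all 8 panels GFP+ array 1 is the highest point, and in 6 the NT array is the lowest.

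*Rsad2* encodes viperin, an antiviral enzyme that makes a chain-terminating nucleotide. Its brighter probe set (Y07704_g_at) had signals of 3931 and 1483 on the GFP+ arrays, 619 and 1098 on the GFP+/- arrays, and 58.3 in NT cells. Both GFP+ arrays were above both GFP+/- arrays, and the NT array was far below all 4. The other *Rsad2* probe set (Y07704_at) had 368 and 235 in GFP+, 82.9 and 154 in GFP+/- cells, with 167 in NT cells. Here too both GFP+ arrays were highest, but the NT array was above both GFP+/- arrays, so the 2 probe sets disagreed on where NT cells stand.

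*Mx1* and *Mx2* encode dynamin-like GTPases that interferon induces and that block the replication of viruses. The *Mx1* probe set (X52711_at) had 737 and 231 in GFP+, 138 and 136 in GFP+/- cells, with 59.0 in NT cells. The *Mx2* probe set (X52713_at) had 1390 and 406 in GFP+, 428 and 408 in GFP+/- cells, with 192 in NT cells. In *Mx1* both GFP+ arrays were above both GFP+/- arrays, but in *Mx2* the second GFP+ array was just below them, and in both genes the NT array was lowest.

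*Gbp2* encodes a guanylate-binding protein, a GTPase of cell-autonomous defence that is best known as a target of interferon-gamma. Its probe set (M80367_at) had 612 and 161 in GFP+, 129 and 124 in GFP+/- cells, with 4.48 in NT cells. The transfected arrays all stood well above the NT array, and the second GFP+ array was close to the GFP+/- arrays. The NT value is near the bottom of the scale, where a MAS 5.0 signal is least precise.

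*Irf1* encodes a transcription factor that interferon-gamma induces within a short time and that itself activates genes of the response. Its brighter probe set (M34253_g_at) had 1229 and 1011 in GFP+, 760 and 797 in GFP+/- cells, with 223 in NT cells. The populations did not overlap, and the arrays of a population were close, with array 1 at 1.21 times array 2 in GFP+ and array 2 at 1.05 times array 1 in GFP+/- cells. The other *Irf1* probe set (M34253_at) was dim, at 100.2 and 23.0 in GFP+, 8.14 and 26.6 in GFP+/- cells and 20.8 in the NT sample, and its populations overlapped.

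*Cxcl10* encodes a chemokine that draws activated T cells and natural killer cells through the receptor CXCR3. Its probe set (U17035_s_at) had 829 and 262 in GFP+, 101 and 141 in GFP+/- cells, with 55.3 in NT cells. Both GFP+ arrays were above both GFP+/- arrays, and the NT array was lowest.

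The arrays of GFP+ cells lay far apart in these genes. GFP+ array 1 was more than 2-fold above GFP+ array 2 in 6 of the 8 probe sets, while 6.57% of all probe sets had that difference. The ratio of array 1 to array 2 was 4.35 for the dim *Irf1* probe set, 3.79 for *Gbp2*, 3.43 for *Mx2*, 3.18 for *Mx1*, 3.16 for *Cxcl10* and 2.65 for the brighter *Rsad2* probe set. It was smaller for the other *Rsad2* probe set (1.56) and the brighter *Irf1* probe set (1.21). As log2 differences, the median of the 8 was 1.67, beside -0.025 over all probe sets. The GFP+/- arrays differed less for *Gbp2*, *Mx1*, *Mx2* and the brighter *Irf1* probe set, by no more than 0.069 on the log2 scale in absolute value, and more for *Rsad2* (array 2 above array 1 by 1.78-fold and 1.86-fold) *Cxcl10* (1.40-fold) and the dim *Irf1* probe set (3.27-fold).

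Values of other cell types and of RNA integrity stood as follows on the same arrays, and their part in these differences was not tested. The summed signal of 13 microglia and macrophage markers was 1508 and 1365 in GFP+, 961 and 811 in GFP+/- cells, with 2059 in NT cells, and 2 of the 13 markers (*C1qb* and *Cd74*) were more than 2-fold higher on GFP+ array 1 than on array 2. *Ctss* and *C1qb* carried much of the NT sum, and without them, a choice made after the values were seen, the other 11 summed to 1296 and 1196, 855 and 698, and 894. By averaged signals, 4 of the 13 (*Itgam*, *Csf1r*, *Lyz2* and *C1qb*, none of them among the brightest 41%) were more than 2-fold higher in GFP+ than in GFP+/- cells, beside 8.89% of all probe sets, and the median log2 difference of the 13 was 0.534. None of these 4 passed limma, but 0 of all 8740 probe sets passed in this comparison, so that outcome says nothing about them. The sum of 14 markers of lymphocytes and natural killer cells was 1298 and 1085, 1065 and 1180, and 1347. Of the 14, 5 were more than 2-fold higher on GFP+ array 1 than on array 2, beside 6.57% of all probe sets. Another 1 (*Il2rb*) was more than 2-fold lower, a direction in which the share of all probe sets was not counted. Only 2 macrophage markers (*C1qc* and *Ctss*) and 1 lymphocyte marker (*Lck*) were among the brightest 41%. The 6 endothelial markers summed to between 542 and 750. Fibroblast markers (12) summed to 11496 and 20574 in GFP+, 43553 and 44351 in GFP+/- cells, with 19108 in NT cells, astrocyte markers (11) to between 38440 and 43363, and neuron markers (11) to 32081 and 26942, 20162 and 22286, and 42074. The ratio of the 3′ to the 5′ *Gapdh* control, which rises as RNA breaks down, was 14.6 and 17.6 in GFP+, 12.7 and 14.2 in GFP+/- cells, with 5.45 in NT cells. In such bulk RNA, fewer cells of a type and less RNA per cell cannot be told apart.

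The comparison of GFP+ with GFP+/- cells asks which transcripts were more abundant in the sorted cells than in whole transfected cultures. The RNA pools came from different experiments, so selection by the sorter and the culture experiments cannot be told apart in it. By the ratio of averaged signals, the measure of the study's methods, 7 of the 8 probe sets were more than 2-fold higher in GFP+ cells, while 8.89% of all probe sets were. The ratio was 4.51 for *Cxcl10*, 3.53 for *Mx1*, 3.15 and 2.54 for the *Rsad2* probe sets, 3.06 for *Gbp2* and 2.15 for *Mx2*, and in *Irf1* it was 1.44 for the brighter and 3.55 for the dim probe set. Both GFP+ arrays were above both GFP+/- arrays in 6 of 8, against 30.3% of all. Without GFP+ array 1, 1 of the 8 (*Cxcl10*, at 2.17) stayed above 2-fold.

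Tested with limma, the log2 difference was 1.97 for *Cxcl10* (SE 0.56, 95% CI 0.57 to 3.36, adjusted p = 0.247) and 1.59 for *Mx1* (SE 0.55, 95% CI 0.24 to 2.94, adjusted p = 0.294). It was 1.55 (SE 0.51, adjusted p = 0.285) and 1.38 (SE 0.40, adjusted p = 0.253) for the *Rsad2* probe sets, which agreed in this comparison within their errors. For *Gbp2* it was 1.32 (SE 0.65, adjusted p = 0.441), for *Mx2* 0.85 (SE 0.55, adjusted p = 0.564), and for *Irf1* 0.52 (SE 0.18, adjusted p = 0.300) in the brighter and 1.71 (SE 0.93, adjusted p = 0.492) in the dim probe set. None of the 8 passed the limma test at an adjusted p of 0.05, as 0% of all probe sets did, and 5 were higher at an unadjusted p under 0.05, against 9.15% of all. The median difference of the 8 was 1.47, beside 0.127 over all probe sets. With p-values adjusted over the brightest 41% only, 1 of 7 passed (*Cxcl10*, adjusted p = 0.0431), against 2.23% of those probe sets. With a prior variance that did not follow intensity, the limma adjusted p of *Cxcl10* over all probe sets was 0.395. The brightest 41% were chosen by the mean over all 5 arrays. *Cxcl10* was above the limit of 175 on the GFP+ arrays only (829 and 262, against 101, 141 and 55.3). The filter is thus tied to the group being compared, and this pass is not independent support.

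Most of these differences moved with GFP+ array 1. Without it, the log2 difference of GFP+ over GFP+/- cells was 1.14 for *Cxcl10*, 0.75 for *Mx1*, 0.85 for the brighter *Rsad2* probe set, 0.35 for *Gbp2* and -0.042 for *Mx2*. Without GFP+ array 2 the same values were 2.80, 2.42, 2.25, 2.28 and 1.73. The other *Rsad2* probe set moved less, to 1.06 without GFP+ array 1 and to 0.93 without GFP+/- array 1. The brighter *Irf1* probe set moved least, between 0.362 and 0.659 over all alternatives.

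**Figure D2:**
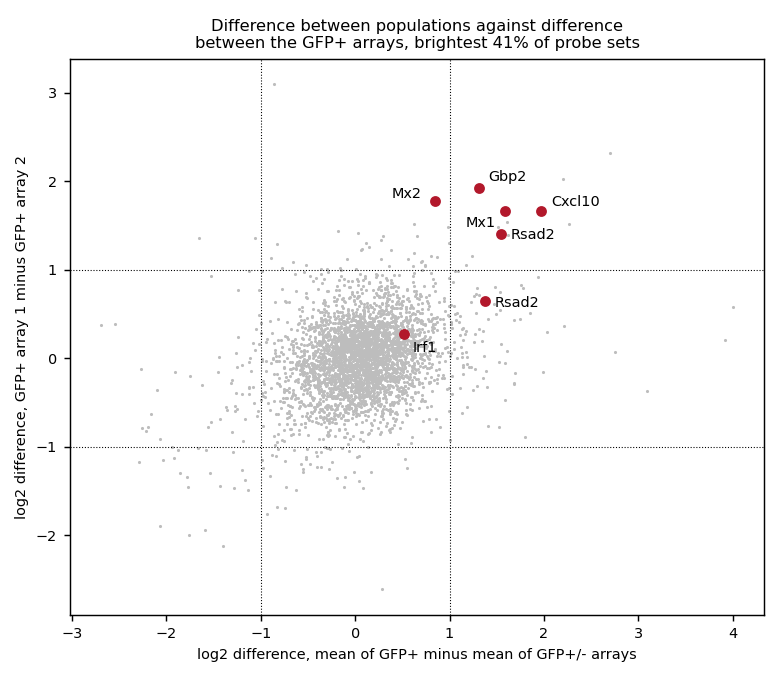
Each point is one of the 3583 brightest probe sets: the x axis gives the log2 difference of mean GFP+ over mean GFP+/- signal and the y axis that of GFP+ array 1 over GFP+ array 2; red points are interferon-induced probe sets and dotted lines mark 2-fold. *Gbp2*, *Mx1*, *Mx2*, *Cxcl10* and the brighter *Rsad2* probe set lie above the 2-fold line on the y axis, and the brighter *Irf1* and the other *Rsad2* probe set lie below it.

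The comparisons with NT cells ask what differs from cultures that were not transfected. They share the single NT array, and the GFP+ comparisons share the GFP+ arrays. Transfection, any difference in handling at the sorter and the lower 3′ to 5′ ratio of the NT RNA cannot be told apart in them. Between GFP+ and NT cells, the separate culture experiments cannot be told apart from these either.

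GFP+ cells were above NT cells in all 8 probe sets, and 7 were more than 2-fold higher by averaged signals, against 14.5% of all. *Gbp2*, the brighter *Rsad2* probe set and the brighter *Irf1* probe set passed the limma test. Their log2 differences were 6.13 (SE 0.79, adjusted p = 0.0158), 5.37 (SE 0.62, adjusted p = 0.0146) and 2.32 (SE 0.22, adjusted p = 0.0104). These 3 of 8 stand beside 4.38% of all probe sets called higher. *Cxcl10* (3.07, SE 0.69, adjusted p = 0.0539), *Mx1* (2.81, SE 0.67, adjusted p = 0.0626) and *Mx2* (1.97, SE 0.68, adjusted p = 0.146) did not pass over all probe sets. Over the brightest 41%, 6 of 7 passed, against 16.7% of those probe sets. *Gbp2*, *Mx1*, *Cxcl10* and the dimmer *Rsad2* probe set were below the brightness limit of 175 on every GFP+/- and NT array. They entered that set through their GFP+ signals, so the count of 6 is not independent support. The one that did not pass was the dimmer *Rsad2* probe set (0.81, SE 0.49, limma adjusted p = 0.196, and 0.397 over all probe sets). The *Rsad2* probe sets thus gave log2 differences of 5.37 and 0.81 for the same gene. The median of the 8 was 2.57, beside 0.056 over all probe sets. With any 1 of the 4 transfected arrays left out, 0 of the 8 passed and 1 of all probe sets did, with adjusted p-values from 0.0546 to 0.0742 for *Gbp2* and from 0.0546 to 0.0732 for *Rsad2* and *Irf1*; each such fit had 1 residual degree of freedom. With a prior variance that did not follow intensity, 0 of the 8 passed in either comparison with NT cells, and 2 of all 8740 probe sets did in each.

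In GFP+/- cells, 6 of the 8 probe sets were more than 2-fold above NT cells by averaged signals, against 12.1% of all. The same 3 probe sets passed, with log2 differences of 4.82 for *Gbp2* (SE 0.79, adjusted p = 0.0256), 3.82 for *Rsad2* (SE 0.62, adjusted p = 0.0250) and 1.81 for *Irf1* (SE 0.22, adjusted p = 0.0149), against 4.2% of all probe sets called higher. *Mx1* (1.22, adjusted p = 0.343), *Mx2* (1.12, adjusted p = 0.393) and *Cxcl10* (1.11, adjusted p = 0.405) did not pass. The other *Rsad2* probe set (-0.56, SE 0.49, adjusted p = 0.570) and the dim *Irf1* probe set (-0.50, adjusted p = 0.852) had lower signals in GFP+/- than in NT cells. Over the brightest 41% the count stayed at 3 of 7, against 16.4% of those probe sets. *Gbp2*, *Mx1*, *Cxcl10* and the dimmer *Rsad2* probe set are in that set through their GFP+ signals only. This count is thus not independent support. The median of the 8 was 1.17, beside -0.094 over all. Without GFP+/- array 1 or array 2, 0 of the 8 and 1 of all probe sets passed, although the differences stayed at 4.79 and 4.85 for *Gbp2*, 4.24 and 3.41 for *Rsad2* and 1.84 and 1.77 for *Irf1*. With GFP+ array 1 or array 2 left out, these 3 of the 8 passed, beside 323 and 333 of all probe sets in either direction. The size for *Gbp2* depends on the very low NT value: with 16 added to every signal before the logarithm, it was 4.03 in GFP+ and 2.80 in GFP+/- cells, the latter with an adjusted p of 0.0728 (0.000576 to 0.144 over all alternatives).

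**Figure D3:**
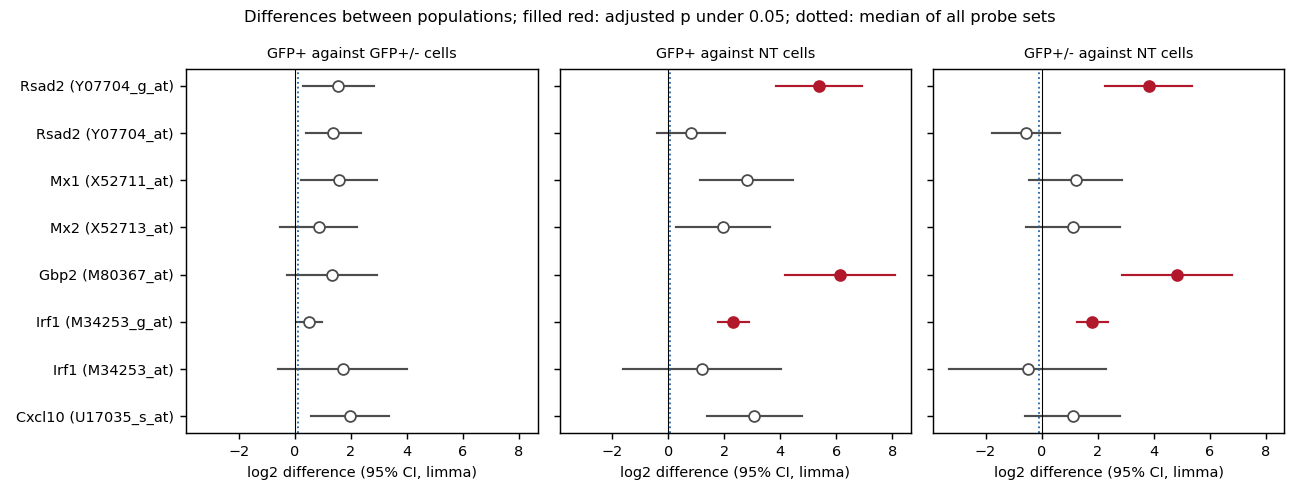
Log2 differences (points, x axis) with 95% confidence intervals (lines) from limma for the 8 probe sets in 3 comparisons; red filled points have an adjusted p under 0.05 and the blue dotted line is the median of all probe sets. No point is red for GFP+ against GFP+/- cells, and *Gbp2*, *Rsad2* and *Irf1*, each by 1 probe set, are red in both comparisons with NT cells.

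The rest of the interferon pathway was read from lists of 52 other genes on the array, a gene standing for its brightest probe set. Between GFP+ and GFP+/- cells the median log2 difference of these 52 was 0.215 (0.127 over all probe sets). Of the 52, 3 were more than 2-fold higher (8.89% of all probe sets) and 4 more than 2-fold lower (4.18% of all). In either direction 0 passed limma, as did 0 of all probe sets. Against NT cells, 22 were more than 2-fold higher in GFP+ cells and 2 lower, beside 14.5% and 12.3% of all probe sets, with a median of 0.528 (0.056 over all). Of the 52, 10 were called higher (4.38% of all) and 0 lower. Of all 8740 probe sets, 738 were called in either direction, 383 of them higher. In GFP+/- cells 19 were more than 2-fold higher and 3 lower than in NT cells, beside 12.1% and 15.2% of all probe sets, with a median of 0.401 (-0.094 over all). The same 10 were called higher there (4.2% of all) and 2 lower (*Ifrd1* and *Ptpn6*). Of all 8740 probe sets, 807 were called there in either direction, 367 of them higher, so 2 lower is not read as a result. The transcripts called higher were *Irf3*, *Irf7*, *Oas1a*, *Ifitm3*, *Psmb9*, *Psme1*, *Icam1*, *Cx3cl1*, *Ccl2* and *Ccl20*, named after their values were seen. GFP+ array 1 was more than 2-fold above array 2 in 3 of the 52 (*Irf7*, *Cd74* and *Ccl5*), beside 6.57% of all probe sets. It was more than 2-fold below array 2 in 6. The share of all probe sets below was not counted, so the 6 is not read as a result. The median log2 difference of the 52 was -0.064.

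Interferon and receptor transcripts were dim, and they too were named after their values were seen. *Ifnb1*, the type I interferon of non-immune cells, had signals of 32.3 and 25.1 in GFP+, 33.9 and 21.7 in GFP+/- cells, with 6.31 in NT cells (GFP+ over NT 2.17, adjusted p = 0.0963). *Ifng*, the type II interferon of lymphocytes, had 24.1 and 72.3, 26.5 and 51.1, and 11.1. *Ifng* was higher on the second GFP+ array, where the 8 probe sets were lower. None of the 4 receptor and Janus kinase genes (*Ifnar1*, *Ifngr1*, *Jak1* and *Jak2*) passed in any comparison. *Ifngr1*, the ligand-binding chain of the interferon-gamma receptor, had signals of 4.80, 3.05, 7.08, 2.68 and 38.5 in the same order as above, all low.

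Among the transcription factors, *Irf7*, which amplifies type I interferon production, had 506 and 228 in GFP+, 217 and 175 in GFP+/- cells, with 28.2 in NT cells. It was the one bright gene of the 52 with GFP+ array 1 more than 2-fold above array 2. Against GFP+/- cells its log2 difference was 0.80 (adjusted p = 0.484), and against NT cells it was 3.59 (SE 0.52, adjusted p = 0.0204). *Irf3*, the factor that sensors activate, had 1.80 over NT cells (SE 0.29, adjusted p = 0.0235), with signals of 716 and 618 in GFP+ cells. *Stat2*, a partner in the complex that binds the response element, did not pass (0.87, adjusted p = 0.167).

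Of the sensors, *Eif2ak2*, the kinase that halts translation on double-stranded RNA, had 1.17 over NT cells (adjusted p = 0.0939), and *Tbk1*, a kinase that acts on IRF factors, had -0.82 (adjusted p = 0.239). Among the other antiviral genes, the oligoadenylate synthetase *Oas1a* had 1178 and 748 in GFP+, 757 and 675 in GFP+/- cells, with 236 in NT cells. The membrane protein *Ifitm3* had 2230 and 2798, 3513 and 3200, and 664. Both passed against NT cells in both transfected populations. Between GFP+ and NT cells, *Lgals3bp* (1.29, limma adjusted p = 0.0932) did not pass. *Ifrd1* was lower in GFP+ than in NT cells (-0.94, limma adjusted p = 0.0648) and did not pass there. *Ifitm3* had a lower mean in GFP+ than in GFP+/- cells, at -0.42 (adjusted p = 0.380), and *Oas1a* a higher one, at 0.39 (adjusted p = 0.564).

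Among interferon-gamma targets, *Psmb9*, *Icam1* and *Psme1* passed against NT cells in both transfected populations. *Psmb8* (GFP+ over NT 1.1, limma adjusted p = 0.126) and the brightest *Tap1* probe set (0.74, limma adjusted p = 0.131) did not. The immunoproteasome subunit *Psmb9* had 901 and 496, 545 and 570, and 73.9, a difference of 3.18 between GFP+ and NT cells (SE 0.38, adjusted p = 0.0149) and 0.26 between GFP+ and GFP+/- cells. The adhesion molecule *Icam1* had 657 and 825, 939 and 774, and 184. The 11 genes of the list had a median of 0.141 between GFP+ and GFP+/- cells, and 3 were called higher in each transfected population than in NT cells.

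The chemokine *Ccl2*, which recruits monocytes, had its higher mean in GFP+/- cells. It had 1752 and 1327 in GFP+, 4256 and 2185 in GFP+/- cells, with 133 in NT cells. Its averaged signals gave a log2 ratio of -1.06 for GFP+ over GFP+/- cells, where the limma difference had an adjusted p of 0.295, and its log2 difference between GFP+ and NT cells was 3.52 (SE 0.42, adjusted p = 0.0149). *Cx3cl1*, a chemokine that neurons display to microglia, had 2865 and 3007, 2562 and 2747, and 930. *Ccl5*, named after its values were seen, had 320 on GFP+ array 1 and 22.5, 12.1, 14.1 and 9.80 on the others. It is the gene of the 52 in which GFP+ array 1 stood highest above array 2. The 7 brakes on the response, SOCS, PIAS and phosphatase genes, had a median of 0.224 between GFP+ and NT cells, and 0 passed there.

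**Figure D4:**
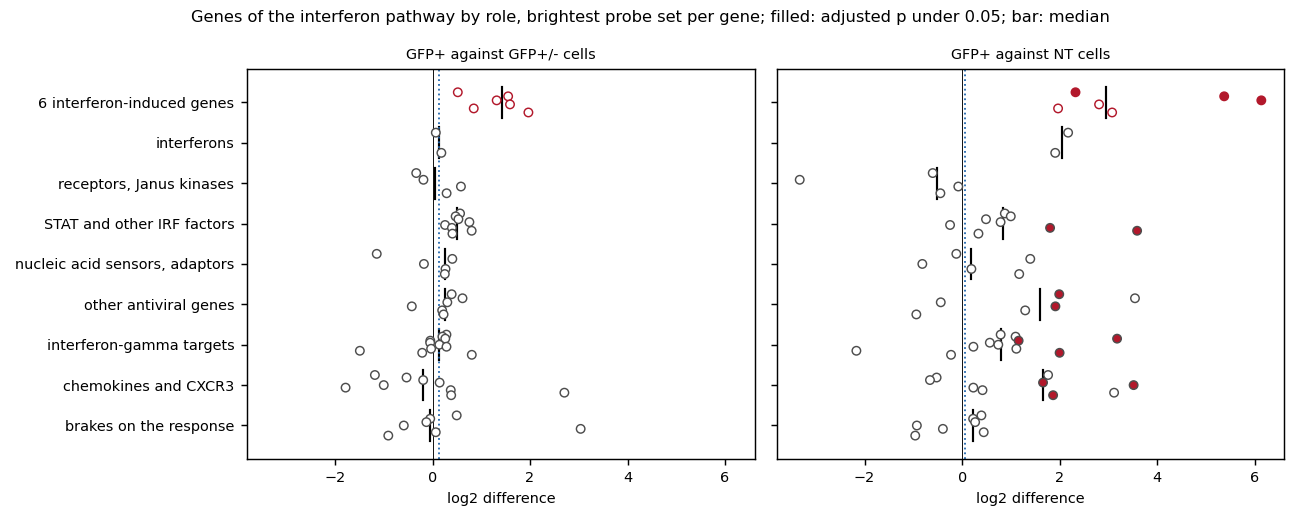
Log2 difference (x axis) of genes of the interferon pathway, grouped by role (rows), between GFP+ and GFP+/- cells (left) and GFP+ and NT cells (right); circles are genes, filled where the adjusted p is under 0.05, black bars are list medians and the blue dotted line is the median of all probe sets. On the left no circle is filled; on the right filled circles occur in 5 rows.

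The transcripts whose profile over the 5 arrays was closest to each of the 6 were sought among the brightest 41%, by the Euclidean distance of log2 signals centred on their mean. Nearest to *Irf1* were *Gpt* (0.148), *Ndufb8* (0.211) and *Nfkbia* (0.233), the last encoding the inhibitor of NF-kappa B, with signals of 1171, 1021, 662, 753 and 183. Nearest to both *Gbp2* and *Rsad2* were *Tap1* (1.04 and 1.13), *Igfbp3* (1.68 and 1.56) and *Hist4h4* (1.73 and 1.61). The *Tap1* transcript encodes a peptide transporter of antigen presentation, and its nearest probe set had 580, 385, 244, 230 and 9.59. A brighter *Tap1* probe set had 372, 411, 332, 379 and 234. In both *Tap1* probe sets the NT array was lowest, by very different amounts.

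*Mx1* was nearest to *Cyp51* (0.769), *Atf3* (0.775) and *Tpm3* (0.869), and *Mx2* to *Tpm3* (0.606), *Cyp51* (0.677) and *Hist1h2af* (0.737). *Cxcl10* was nearest to the stress factors *Atf3* (0.820) and *Ddit3* (1.17) and to *Fst* (1.18). *Atf3* had signals of 1172 and 673 in GFP+, 242 and 277 in GFP+/- cells, with 162 in NT cells. With 5 arrays, 2 pairs of which share an RNA, such a likeness describes these arrays only.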

How the data were processed

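Biotinylated targets from GFP+ (2 arrays), GFP+/- (2) and NT (1) RNA had been hybridized to rat U34A arrays. The authors computed one MAS 5.0 signal per probe set and array, and the deposited values are these linear intensity values, whose mean without the top and bottom 2% was 501 on every array; this differs from the scaling target stated in the methods, so the deposited values were scaled to another level. Detection calls were not used. After removal of 59 controls from the 8799 probe sets, 8740 were analysed, of which 7006 had 1 gene, 308 several and 1426 none in the platform annotation. Of the 7006, the gene identifiers of 6985 were found in RefSeq (GRCr8).

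Signals under 1 were set to 1 and log2 transformed. Populations were compared with limma 3.58.1 (R 4.3.3). A single model held the 5 arrays and a mean for each population, with a prior variance that followed intensity, and p-values (two-sided) were adjusted by Benjamini-Hochberg over all 8740. The lone NT array carries no information on spread, which was taken to be that of the other populations. The number of arrays limits the precision. The fit was tested on simulated data. Python 3.11.15 (pandas 2.3.3, numpy 2.4.6, matplotlib 3.10.9) served for tables and plots.

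The 6 genes, the pathway lists and the cell markers were chosen with earlier results of these data known. Named genes are all probe sets of the 6, up to 4 genes per list with the largest ratio of GFP+ over GFP+/- signals among the brightest 41%, and the 3 nearest profiles per gene; others are said to be named after their values were seen. The alternatives were quantile normalization, equal medians, 16 added to each signal, the brightest 41%, no trend, a replicate block, only the GFP+ and GFP+/- arrays, and each transfected array left out.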

Additional observations from a re-analysis of the deposited data

How the results depend on the processing

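For GFP+ against GFP+/- cells, the number of the 8 probe sets past the adjusted threshold went from 0 to 1 among the brightest 41%. That set was chosen by the mean over all 5 arrays, GFP+ array 1 included, so counts within it are not independent of the comparisons. The number higher at an unadjusted p under 0.05 went from 5 to 2 without the trend and ranged from 0 to 8 with 1 array left out. The number over 2-fold ranged from 1, without GFP+ array 1, to 7. *Mx2* turned to -0.042 without GFP+ array 1 and was at most 1.73 with another array left out. For GFP+ against NT cells, the count past the adjusted threshold went from 3 to 6 among the brightest 41%, to 0 without the trend (2 of all probe sets) and to 0 with any array left out. For GFP+/- against NT cells it went from 3 to 0 without the trend, and ranged from 0 to 3 with 1 array left out. The dim *Irf1* probe set turned to 0.357 there without GFP+/- array 1, the lowest such value being -1.35. The cause was not tested. Without the trend, 2 of all 8740 probe sets passed in each comparison with NT cells, so a count of 0 there says nothing about the 8. Fits with an array left out had 1 residual degree of freedom. The share of all probe sets at an unadjusted p under 0.05 was not counted without the trend or with an array left out. The moves of that count are thus not read as a result about the 8. Of single log2 differences, 85 of 87 alternatives kept direction and call for GFP+ against GFP+/- cells, 59 of 79 for GFP+ against NT cells and 68 of 79 for GFP+/- against NT cells. For GFP+ against GFP+/- cells, 0 of all probe sets passed in the main fit, so a kept call there is no sign of stability. Some alternatives, such as no trend and the brightest 41%, leave the difference itself unchanged.

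Quantile normalization moved the median of all probe sets for GFP+ against GFP+/- cells from 0.127 to -0.005 and equal medians to -0.029, and all 8 differences of that comparison kept their sign under either. Same-numbered arrays deviated from their population means with a correlation of 0.063 over all probe sets and 0.197 over the brightest 41%. With 2 pairs, and no label that ties a number to a shared batch, the arrays were treated as sharing only a number. With the replicate block, 5 of the 8 passed limma for GFP+ against NT cells, *Cxcl10* (adjusted p = 0.0428) and *Mx1* (0.0317) being added, and no other call changed. That fit had 1 residual degree of freedom. It called 864 of all 8740 probe sets in either direction, against 738 in the main fit.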
